A study of Mus musculus with 9 samples.

Results

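The genes described here encode the enzymes that build and sulfate glycosaminoglycan chains, together with their relatives that sulfate other carbohydrates. They were taken by symbol: the families Chst, Hs2st, Hs3st, Hs6st, Ndst, Ext, Extl, Xylt, Chsy and Chpf, and the genes Csgalnact1, Csgalnact2, Ust and Dse. Of 22180 genes with a transcript cluster (a set of probes for one transcript region) annotated to a single symbol, 40 fitted, and Chpf, a family stem with no digit after it, was counted among them. A gene with more than 1 such cluster was read from the brightest.

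RNA was measured on 9 Affymetrix Mouse Gene 2.0 ST arrays of primary osteoblasts, the bone-forming cells, from the calvaria of C57BL/6J mice aged 7 to 10 days. At passage 2 the cells were differentiated from day 3, deprived of serum on day 10 for 24 h and then treated for 4 h in medium without serum. The groups of 3 arrays each received vehicle, 100 nM human parathyroid hormone (1-34), here hPTH(1-34), or, at 1 µM, the bovine hormone's (7-34) amide with D-Trp12 and Tyr34, here bPTH(7-34). hPTH(1-34) activates the receptor PTH1R and raises cAMP in osteoblasts, whereas bPTH(7-34) lacks the residues needed for activation and serves as an antagonist. The peptides differ in dose as well as in sequence, so a difference between them is one between these groups and not one at a matched dose. Cells were prepared separately for each replicate, and the animals' sex and the number pooled were not given in the sources used here. Whether arrays with the same number in different groups shared a preparation was not stated either, and the main model did not pair them.

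Glycosaminoglycans are long sugar chains carried by proteoglycans of the matrix and the cell surface. Xylosyltransferases start a chain on a serine of the core protein. After a common linkage of sugars the chain grows either as heparan sulfate or as chondroitin sulfate, of which dermatan sulfate is a modified form. Sulfotransferases in the Golgi then add sulfate at set positions from the donor PAPS, and the resulting pattern decides which growth factors, morphogens and matrix proteins bind. In bone and cartilage these chains are known for holding matrix and for shaping the range of hedgehog, BMP, FGF and Wnt signals.

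Values are log2 RMA levels, and a group mean above 1.69 was taken as over background. This limit is the level under which 95% of 1105 olfactory receptor genes lay with vehicle. In 31 of the 40 genes all 3 group means lay over this limit, and in 7 none did. These 7 were Chst3, Chst4, Chst9, Hs3st2, Hs3st5, Ndst3 and Ndst4. Of the other two, Hs6st3 lay over it with vehicle and bPTH(7-34), and Extl1 with hPTH(1-34) alone. Levels of different probes are not comparable with each other, so they are set against this limit and between groups only.

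The 9 arrays had medians from 1.67 to 1.76 over 41345 clusters. Osteoblast markers were present, with vehicle means of 12.29 for the collagen gene Col1a1 and 5.50 for the phosphatase Alpl, but the late marker Bglap and, with vehicle, the transcription factor gene Sp7 (1.45) lay under the limit. Of the marker lists, 0 of 7 osteoblast, 5 chondrocyte, 6 macrophage and osteoclast, 4 endothelial, 4 adipocyte and 4 skeletal muscle genes passed between hPTH(1-34) and vehicle in limma, with 3 in all at an unadjusted p under 0.05, namely Alpl, Fabp4 and Plin1. Over all clusters these shares were 0.451% and 9.31%. Alpl, Fabp4 and Plin1 were higher with hPTH(1-34), by log2 0.97 ± 0.17, 0.85 ± 0.26 and 0.54 ± 0.21 (limma adjusted p = 0.0601, 0.299 and 0.454). For Alpl the hPTH(1-34) arrays lay above all others. Of the chondrocyte markers Col2a1 (6.74) and Sox9 (6.58) were over the limit with vehicle and Matn1 (1.13) was not.

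Between hPTH(1-34) and vehicle, Chst11 and Chst8 were called higher and no member was called lower. Chst11, which adds sulfate to the 4-position of N-acetylgalactosamine in chondroitin, was 3.90-fold higher, and Chst8, which does the same on the N-glycans of glycoprotein hormones rather than on glycosaminoglycans, was 2.39-fold higher. The tested background was 0.451% of 23521 clusters at an adjusted p under 0.05 (limma, Benjamini-Hochberg), with 0.310% higher and 0.140% lower, against 2 of the 40 members (5.00%). Both genes were known to differ here when the enzymes were chosen, so these shares describe the set and do not test it. At an unadjusted p under 0.05 there were 11 members (27.5%), 7 higher and 4 lower, where all clusters gave 9.31% and the clusters over background in either group 12.8%. The median log2 change of the 40 was 0.02, with 21 positive and 19 negative, while that of all 22180 genes was 0.003 and 50.2% of all clusters were positive.

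Chst11 had log2 levels of 5.23, 4.59 and 4.19 on vehicle arrays 1 to 3, of 6.05, 6.85 and 7.00 with hPTH(1-34), and of 5.09, 5.22 and 4.69 with bPTH(7-34). All 3 hPTH(1-34) arrays lay above the other 6, and the closest pair was hPTH(1-34) array 1 and vehicle array 1. The log2 change against vehicle was 1.96 ± 0.31 (SE, n = 3 per group, limma adjusted p = 0.0378), with a 95% interval from 1.27 to 2.65. Against bPTH(7-34) it was 1.63 ± 0.31 (adjusted p = 0.0669), which did not pass.

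Chst8 had levels of 3.47, 3.68 and 3.40 with vehicle, of 4.69, 4.66 and 4.98 with hPTH(1-34), and of 3.72, 3.32 and 3.49 with bPTH(7-34). The hPTH(1-34) arrays again lay above the other 6, with a gap wider than the spread inside any group. Its log2 change was 1.26 ± 0.14 against vehicle (limma adjusted p = 0.0112, 95% interval 0.95 to 1.57) and 1.27 ± 0.14 against bPTH(7-34) (adjusted p = 0.0112). In bulk RNA, a change in the share of cells of a type and a change in RNA per cell cannot be told apart.

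The sequences before a start site of each gene are shown because these are the members that passed. They come from RefSeq on GRCm38.p6, read 5′ to 3′ on the gene's strand, and cover the 250 bases before the start site given in RefSeq's promoter windows, at chr10:82985247-82985496 on the plus strand for Chst11 and chr7:34812712-34812961 on the minus strand for Chst8. For Chst8 this is the first base of the annotated gene. For Chst11 it is a start site inside the annotated gene, downstream of its first base, and the sequence before that first base was not used here. Capitals mark GGGCGG on either strand, the letters of a GC box, which were chosen after the sequences had been seen.
Chst11: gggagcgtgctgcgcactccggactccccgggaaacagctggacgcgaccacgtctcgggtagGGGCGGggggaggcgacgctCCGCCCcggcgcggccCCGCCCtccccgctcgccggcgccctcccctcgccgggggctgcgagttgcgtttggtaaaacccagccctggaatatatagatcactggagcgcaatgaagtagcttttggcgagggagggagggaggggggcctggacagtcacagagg
Chst8: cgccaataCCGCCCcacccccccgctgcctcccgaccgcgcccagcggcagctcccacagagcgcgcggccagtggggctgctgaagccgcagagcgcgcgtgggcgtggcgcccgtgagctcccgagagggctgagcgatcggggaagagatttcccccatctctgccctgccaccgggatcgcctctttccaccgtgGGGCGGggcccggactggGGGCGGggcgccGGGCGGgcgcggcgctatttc

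GGGCGG occurred 3 times before Chst11 and 4 times before Chst8. In windows of 300 bases, from 250 before to 50 after a start site, it was found in 35.7% of 32851 RefSeq windows and in 24 of the 36 windows of the 32 members that had one. Chst9, Chsy3, Csgalnact1, Ext1, Extl3, Hs3st6, Ndst4 and Xylt1 had none in the table used. The cAMP response element TGACGTCA, the site of CREB family factors, was searched on both strands, as was its core TGACG, which also counts inside the full element. Neither was in the window of Chst8 or in the 1 window of Chst11. The full element was in 1.79% of all windows and in those of 2 members, Chpf and Hs3st2. The core was in 20.8% of all windows and in 11 of the 36 member windows, Hs2st1, Chsy1 and Dse among them. A match is a match of letters, and a missing one says only that the letters are not in that window.

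**Figure D1:**
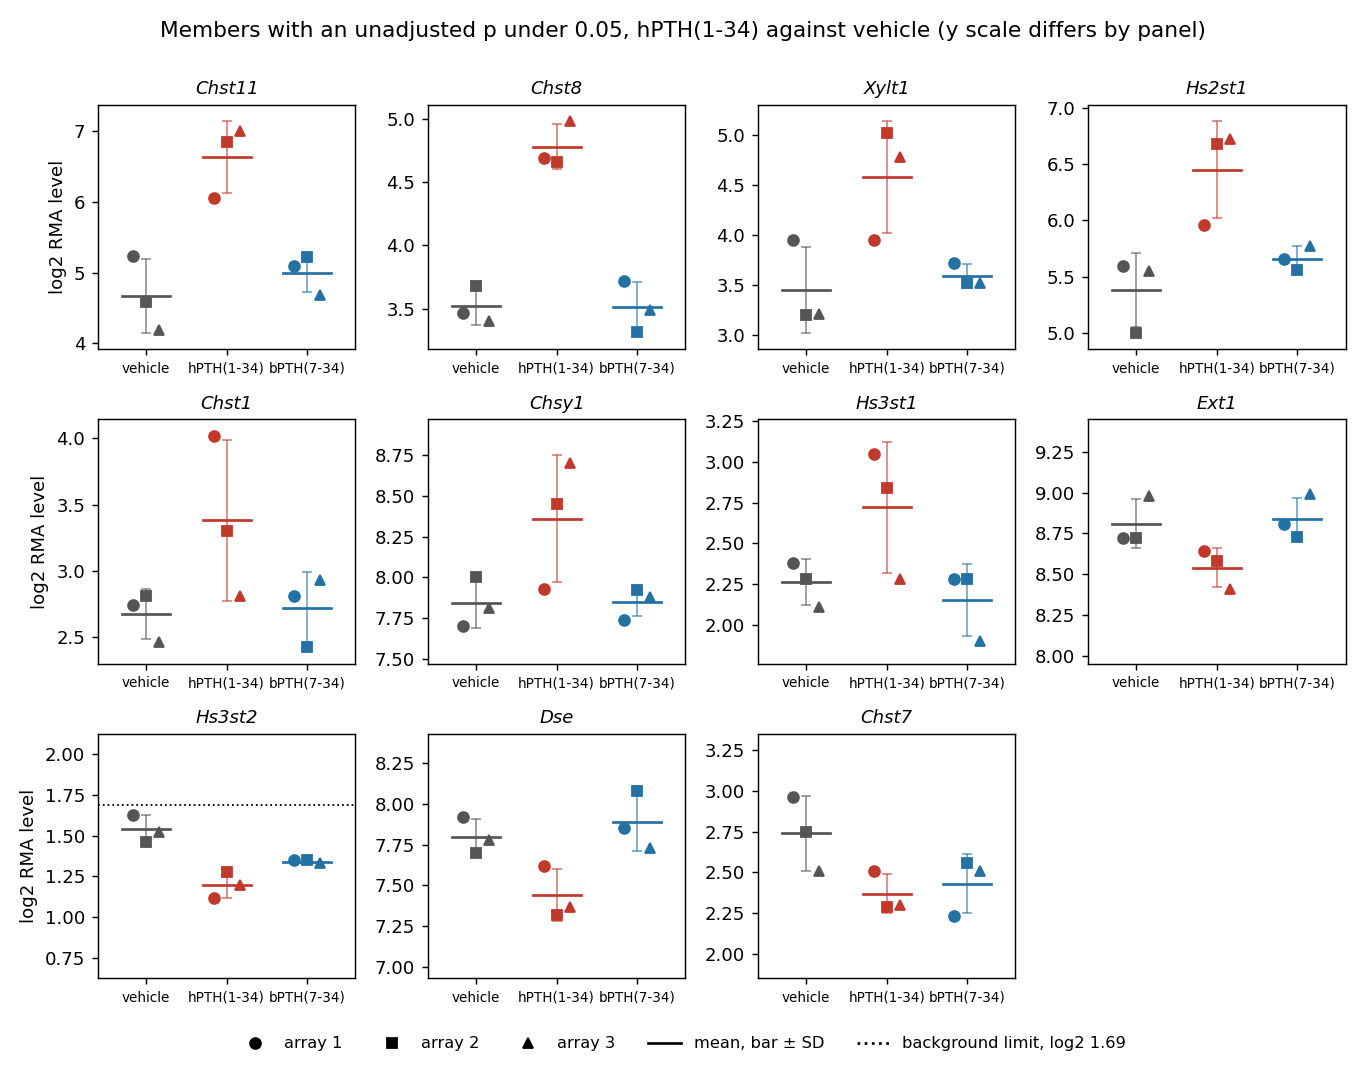
Log2 RMA level (y axis, scale differing by panel) of the 11 members with an unadjusted p under 0.05 between hPTH(1-34) and vehicle, by group (x axis). Symbols are single arrays by number, lines are means of 3 arrays and bars ± SD. In Chst11, Chst8 and Hs2st1 all 3 hPTH(1-34) arrays lie above the other 6, while in Xylt1 and Chsy1 hPTH(1-34) array 1 lies level with or inside the vehicle range.

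Chains begin with the xylosyltransferases Xylt1 and Xylt2. Xylt1 had levels of 3.95, 3.20 and 3.21 with vehicle, of 3.95, 5.02 and 4.78 with hPTH(1-34) and of 3.72, 3.52 and 3.52 with bPTH(7-34). On hPTH(1-34) array 1 it was equal to vehicle array 1, and on arrays 2 and 3 it was above every other array. The log2 change against vehicle was 1.13 ± 0.28 (limma adjusted p = 0.186), so this 2.19-fold difference did not pass. Xylt2 gave -0.11 ± 0.16, with vehicle and hPTH(1-34) means of 3.93 and 3.81.

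Among the heparan sulfate polymerases none passed. Ext1, which with Ext2 forms the enzyme that lengthens the chain, had levels of 8.72, 8.72 and 8.98 with vehicle, 8.64, 8.58 and 8.41 with hPTH(1-34) and 8.81, 8.73 and 8.99 with bPTH(7-34). Its hPTH(1-34) arrays lay under the other 6, but the log2 change of -0.26 ± 0.12 had adjusted p = 0.527 in limma. Ext2 gave 0.06 ± 0.10 around a vehicle mean of 6.22. Extl3, which adds the sugar that commits a chain to heparan sulfate, gave -0.02 ± 0.11 around 7.15. Extl2 gave -0.06 ± 0.09, and Extl1 lay near the limit in every group.

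Of the 13 heparan sulfate sulfotransferases among the members none passed. Ndst1 and Hs3st3a1 were not among them, so nothing is read for these genes. The widest difference was in Hs2st1, which sulfates the 2-position of iduronic acid. Hs2st1 had levels of 5.59, 5.00 and 5.55 with vehicle, of 5.96, 6.68 and 6.72 with hPTH(1-34) and of 5.66, 5.56 and 5.77 with bPTH(7-34). The hPTH(1-34) arrays lay above all others, and array 1 was the lowest of them. The log2 change was 1.07 ± 0.22 (limma adjusted p = 0.0990, 95% interval 0.57 to 1.57). Hs3st1, a 3-O-sulfotransferase of the kind that makes antithrombin-binding chains, went from 2.38, 2.28 and 2.11 with vehicle to 3.05, 2.84 and 2.28 with hPTH(1-34). Its groups overlapped and its change of 0.47 ± 0.19 had adjusted p = 0.495.

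Of the 6-O-sulfotransferase genes, Hs6st1 had the widest error of the 40 members, with an SD of 0.68 over the bPTH(7-34) arrays, and gave 0.55 ± 0.35 between hPTH(1-34) and vehicle. Hs6st2 gave -0.07 ± 0.17, and Hs6st3 lay near the limit. Ndst2, which swaps acetyl for sulfate on glucosamine, gave -0.003 ± 0.15 around a vehicle mean of 4.48. Of the 3-O-sulfotransferases, Hs3st3b1 gave -0.22 ± 0.15, Hs3st6 0.18 ± 0.10 and Hs3st4 0.08 ± 0.16. Hs3st2 gave -0.34 ± 0.09 (unadjusted p = 0.00339, adjusted p = 0.200 in limma) with its arrays apart, but its levels of 1.12 to 1.63 in these groups were all under the background limit, so no size of change can be read. Ndst3, Ndst4 and Hs3st5 were under the limit as well, with changes from -0.13 to 0.18.

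The 5 enzymes that polymerise chondroitin were all over the limit and none passed. Chsy1, a chondroitin synthase, had levels of 7.70, 8.00 and 7.81 with vehicle, of 7.93, 8.45 and 8.70 with hPTH(1-34) and of 7.74, 7.92 and 7.88 with bPTH(7-34). On hPTH(1-34) arrays 2 and 3 it lay above all vehicle arrays and on array 1 inside their range. The log2 change was 0.52 ± 0.18 (limma adjusted p = 0.389). A dimmer second cluster of Chsy1 gave 0.78 ± 0.18 (adjusted p = 0.139), with 5.35, 5.44 and 5.41 for hPTH(1-34) against 4.51, 4.68 and 4.67 for vehicle, and these arrays did not overlap.

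Chsy3, its relative, gave opposite signs in its 2 clusters, -0.22 ± 0.19 in the brighter and 0.34 ± 0.21 in the other, and no direction is read for it. Chpf, a partner of the synthases that has chain-lengthening activity with them, gave 0.19 ± 0.11 around a vehicle mean of 6.37. Csgalnact1 and Csgalnact2, which add the first N-acetylgalactosamine, gave 0.04 ± 0.14 and -0.04 ± 0.12.

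Next to Chst11, its relatives with the same reaction did not pass. Chst12 gave -0.02 ± 0.20 with a 95% interval from -0.48 to 0.43 around a vehicle mean of 4.54. Chst13 gave -0.19 ± 0.17. Chst14, which sulfates the 4-position in dermatan, gave 0.01 ± 0.13 around 6.00, with an interval from -0.29 to 0.31. None of these 3 intervals reached the 1.27 that was the lower bound for Chst11. A test of the difference between genes was not made.

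Of the 8 genes that modify chondroitin and dermatan, 5 had changes below 0 with hPTH(1-34) and only Chst11 passed. Dse, which turns glucuronic into iduronic acid and so makes dermatan, had levels of 7.92, 7.70 and 7.78 with vehicle, of 7.62, 7.32 and 7.37 with hPTH(1-34) and of 7.85, 8.08 and 7.73 with bPTH(7-34). The hPTH(1-34) arrays lay under the other 6, though the change of -0.36 ± 0.12 had adjusted p = 0.387 in limma. Chst7, a 6-O-sulfotransferase, had 2.96, 2.75 and 2.51 with vehicle, 2.51, 2.29 and 2.30 with hPTH(1-34) and 2.23, 2.56 and 2.51 with bPTH(7-34). Its groups met at 2.51 and its change was -0.37 ± 0.14 (adjusted p = 0.438). Ust, which sulfates the 2-position of uronic acid in these chains, gave -0.18 ± 0.15. The main chondroitin 6-O-sulfotransferase gene Chst3 was under the limit in all groups.

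Among the sulfotransferases of other glycans, only Chst8 passed. Chst1, which sulfates galactose in keratan sulfate, had 2.74, 2.81 and 2.46 with vehicle, 4.02, 3.30 and 2.81 with hPTH(1-34) and 2.81, 2.42 and 2.93 with bPTH(7-34). Here hPTH(1-34) array 1 was the highest, array 3 met the vehicle range, and the change of 0.71 ± 0.27 had adjusted p = 0.450 in limma. Chst2, which sulfates N-acetylglucosamine, gave 0.30 ± 0.15 around a vehicle mean of 5.21, and its relative Chst5 gave 0.19 ± 0.15. Chst10, of the HNK-1 carbohydrate, gave 0.04 ± 0.10. Chst9, the closest relative of Chst8 in function, was under the limit in all groups, with a highest array of 1.24.

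**Figure D2:**
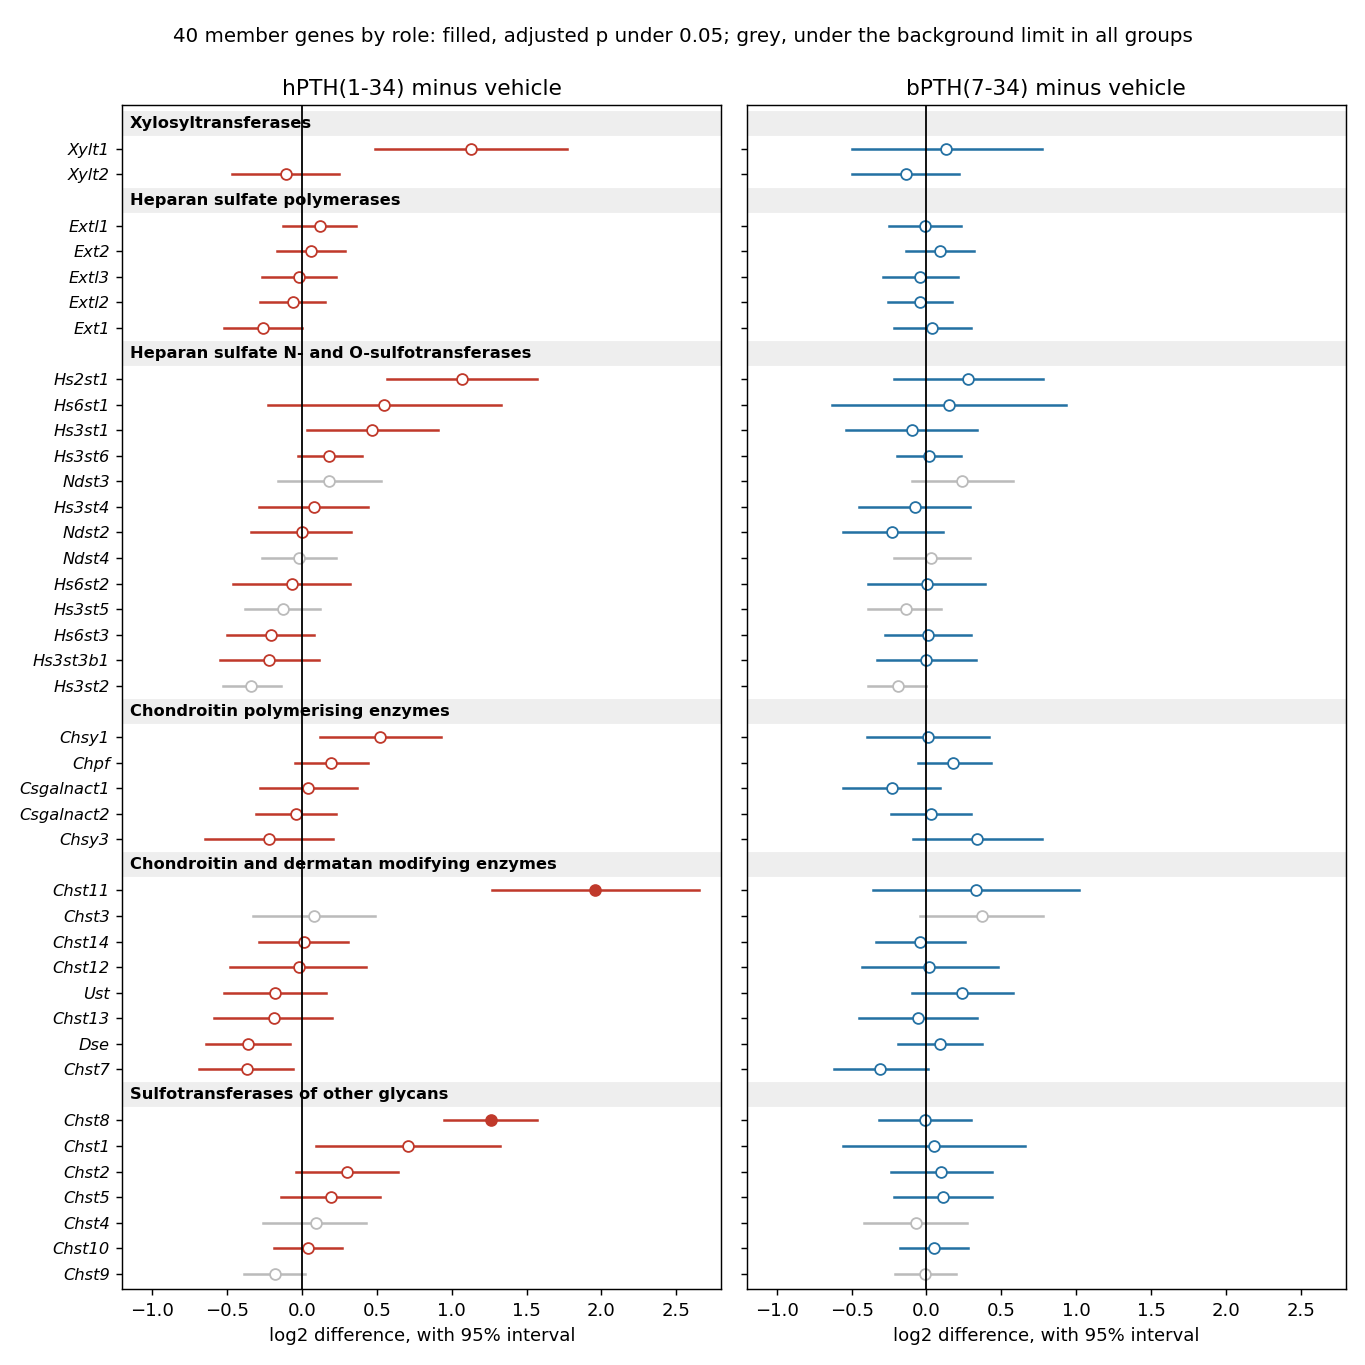
Log2 difference from vehicle (x axis) with 95% intervals for the 40 members, ordered by role, for hPTH(1-34) on the left and bPTH(7-34) on the right. Filled points passed an adjusted p of 0.05, and grey points are genes under the background limit in all groups. Chst11 at 1.96 and Chst8 at 1.26 are the filled points, and every bPTH(7-34) point lies between -0.31 and 0.37.

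In 8 of the 40 members (20.0%) the hPTH(1-34) and vehicle arrays did not overlap, where 10.7% of all clusters and 13.6% of those over background in either group gave such a separation. Higher were 4, Chst11, Chst8, Hs2st1 and Hs3st6, against 6.08% of all clusters, and lower were 4, Dse, Ext1, Hs3st2 and Chst9, against 4.58%. Of the last 4, Hs3st2 and Chst9 were under the limit. Differences of at least 2-fold were measured in 4 members, Chst11, Chst8, Xylt1 and Hs2st1, and in 0.608% of all clusters. For 34 of the 40 the 95% interval lay inside a 2-fold change in either direction. The other 6 were these 4 with Chst1 and Hs6st1, whose upper bounds were 1.32 and 1.33.

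Array number 1 had the smallest difference for several of these genes. On hPTH(1-34) array 1 the levels of Chst11, Hs2st1, Xylt1 and Chsy1 were the lowest of their group, and on vehicle array 1 those of Chst11, Hs2st1 and Xylt1 were the highest of theirs. Without hPTH(1-34) array 1, 5 members passed in limma, namely Chst11 (2.26), Chst8 (1.30), Xylt1 (1.45, adjusted p = 0.0262), Hs2st1 (1.32, adjusted p = 0.0142) and Chsy1 (0.74, adjusted p = 0.0428). Without vehicle array 1 both Chst11 and Chst8 still passed. Without vehicle array 2, vehicle array 3, hPTH(1-34) array 2 or hPTH(1-34) array 3, none passed. In those 4 fits Chst8 gave 1.16 to 1.34 (adjusted p from 0.0673 to 0.0805) and Chst11 1.72 to 1.92 (adjusted p from 0.158 to 0.197). Without any single bPTH(7-34) array, which enters this comparison through the shared spread alone, Chst8 passed and Chst11 did not (adjusted p from 0.0641 to 0.0802). The count over all clusters went from 106 to 259 without hPTH(1-34) array 1, to 0 without vehicle array 2 or 3, and to 3 and 2 without hPTH(1-34) array 2 and 3. Over all 9 such fits the change ran from 1.16 to 1.34 for Chst8 and from 1.72 to 2.26 for Chst11. With the bPTH(7-34) arrays taken out of the model altogether, neither passed (adjusted p = 0.0711 for Chst8 and 0.171 for Chst11).

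**Figure D3:**
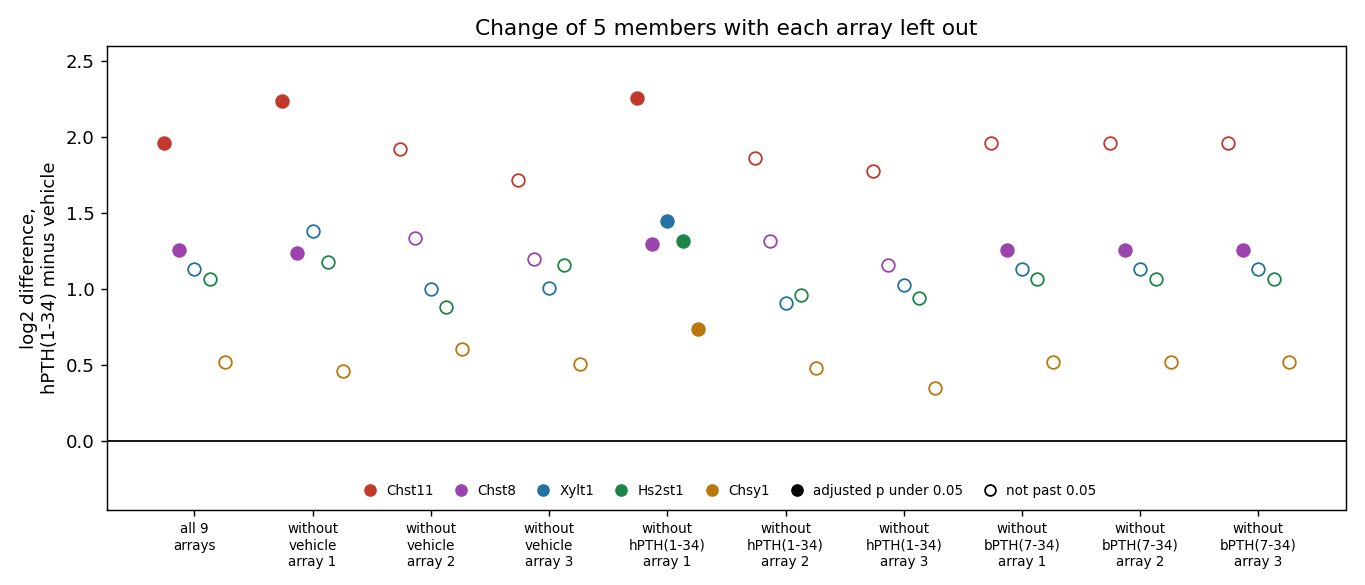
Log2 difference between hPTH(1-34) and vehicle (y axis) for 5 members with all 9 arrays and with each array left out in turn (x axis). Filled points had an adjusted p under 0.05 over all clusters. The sizes stay above 0 throughout, while the number of filled points goes from 5 without hPTH(1-34) array 1 to none without vehicle or hPTH(1-34) array 2 or 3.

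With bPTH(7-34) no member differed from vehicle. limma called 0 of the 40 and 0 also had an unadjusted p under 0.05, where 0% of all clusters were called and 3.32% had such a p (3.51% of those over background in either group). The log2 changes ran from -0.31 to 0.37 with a median of 0.01 and 23 positive (51.2% of all clusters were), and none reached 2-fold, as 0.0170% of all clusters did. Of the intervals, 39 of the 40 lay inside a 2-fold change in either direction. The exception was Chst11, at 0.33 with an interval from -0.36 to 1.02. For Chst8 the change was -0.01 (-0.32 to 0.30), for Hs2st1 0.28 (-0.22 to 0.78), for Xylt1 0.13 (-0.50 to 0.77) and for Chsy1 0.01 (-0.40 to 0.42). The smallest p values belonged to Hs3st2 (-0.19 ± 0.09), Chst7 (-0.31 ± 0.14) and Chst3 (0.37 ± 0.18), each with adjusted p = 0.999, and Hs3st2 and Chst3 were under the limit. In 2 members, Ust higher and Hs3st2 lower, the arrays did not overlap, 5.00% of the members, against 5.29% of all clusters (2.90% higher, 2.39% lower) and 5.13% of those over background. An absent call does not show that the peptide left these genes unchanged, since the intervals typically reached 0.33 to either side (the median over the 40).

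The direct comparison of the peptide groups, at 100 nM and 1 µM, gave 1 call among the 40 members, Chst8, where 0.463% of all clusters were called, 0.332% higher and 0.132% lower. Without array 2 or 3 of either peptide, 0 of the 40 passed in limma, and the count over all clusters went from 109 to 2 or 3. Both peptides were set against the same vehicle arrays above, and this comparison uses none of them for its means. At an unadjusted p under 0.05 there were again 11 members (27.5%, against 9.52% of all clusters and 13.4% of those over background), 7 higher and 4 lower with hPTH(1-34). The median change was 0.01, with 21 positive, where 48.7% of all clusters were. At least 2-fold were 2 members, Chst11 and Chst8, and 0.574% of all clusters. Xylt1 gave 1.00 ± 0.28 (limma adjusted p = 0.250), Hs2st1 0.79 ± 0.22 (adjusted p = 0.243) and Chsy1 0.51 ± 0.18 (adjusted p = 0.388). All 3 had hPTH(1-34) arrays above every bPTH(7-34) array. On the other side Dse gave -0.45 ± 0.12 (adjusted p = 0.238), Ust -0.42 ± 0.15 (0.393) and Ext1 -0.30 ± 0.12 (0.440), with their arrays below. Chsy3 gave -0.56 ± 0.19 (0.368) in its brighter cluster, also with its arrays below. Its other cluster gave 0.28 ± 0.21, so no direction is read for it here either. The arrays did not overlap in 12 members (30.0%), where 11.1% of all clusters and 14.5% of those over background had such a separation. Of the 12, 6 were higher (5.99% of all clusters) and 6 lower (5.10%). Among the lower were Hs3st2 and Chst9, which were under the limit in all groups, and Chsy3.

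The other genes of the pathway, 82 measured of 87 listed entries, covered sugar donors, linkage sugars, sulfate supply, core proteins and breakdown. With hPTH(1-34) 4 of the 82 (4.88%) were called higher and none lower, where 0.310% of all clusters were called higher and 0.140% lower. UDP-sugar supply held 3 of the 4, among 8 measured. This list was also chosen with earlier results of these data known, so these shares describe it and do not test it. Without vehicle array 2 or 3, or hPTH(1-34) array 2 or 3, 0 of the 82 passed in limma. Ugdh, which oxidises UDP-glucose to the UDP-glucuronic acid used in every chain that Ext1 or Chsy1 extends, had 8.16, 8.17 and 8.32 with vehicle, 9.69, 10.48 and 10.83 with hPTH(1-34) and 8.34, 8.23 and 8.21 with bPTH(7-34). Its change was 2.12 ± 0.24 (limma adjusted p = 0.0127). Gfpt2, which starts the hexosamine route, gave 1.92 ± 0.26 (adjusted p = 0.0244), and Uap1, which makes UDP-N-acetylhexosamine, 1.95 ± 0.23 (adjusted p = 0.0167).

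Of 33 core proteins 1 was called higher, Sdc1, the cell-surface carrier of heparan and chondroitin sulfate. It had 4.62, 4.47 and 4.47 with vehicle, 5.12, 5.32 and 5.19 with hPTH(1-34) and 4.61, 4.80 and 4.60 with bPTH(7-34), a change of 0.69 ± 0.10 against vehicle (limma adjusted p = 0.0292) and of 0.54 ± 0.10 against bPTH(7-34) (0.0609). Vcan, the chondroitin sulfate carrier versican, gave 0.46 ± 0.11 (adjusted p = 0.142).

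In the remaining groups none passed. Of 3 hyaluronan synthases Has2 gave 0.63 ± 0.17 (limma adjusted p = 0.220) and Has1 1.12 ± 0.46 (0.483). The 8 genes of sulfate donor supply, needed by every sulfotransferase above, included the PAPS synthase Papss2 at -0.29 ± 0.14 (0.570) and Bpnt1 at 0.37 ± 0.21 (0.650). Among 5 linkage-region genes Fam20b gave -0.20 ± 0.11 and Pxylp1 0.18 ± 0.12. Among 6 genes of chain editing Dsel, a relative of Dse, gave -0.18 ± 0.10 and Hpse2, under the limit in all groups, -0.16 ± 0.11. Of 7 keratan and HNK-1 partners B4galt1 gave 0.32 ± 0.12 (0.440) and B3gat2 0.22 ± 0.13, and of 12 lysosomal genes Idua gave -0.35 ± 0.14 (0.464) and Hgsnat 0.15 ± 0.09. The median of all 82 was 0.03, and 0 passed with bPTH(7-34), also at an unadjusted p under 0.05. Between the peptide groups Ugdh, Uap1 and Gfpt2 passed, 3.66% of the 82 against 0.463% of all clusters, and 0 passed without array 2 or 3 of either peptide. This share too describes the list and does not test it.

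**Figure D4:**
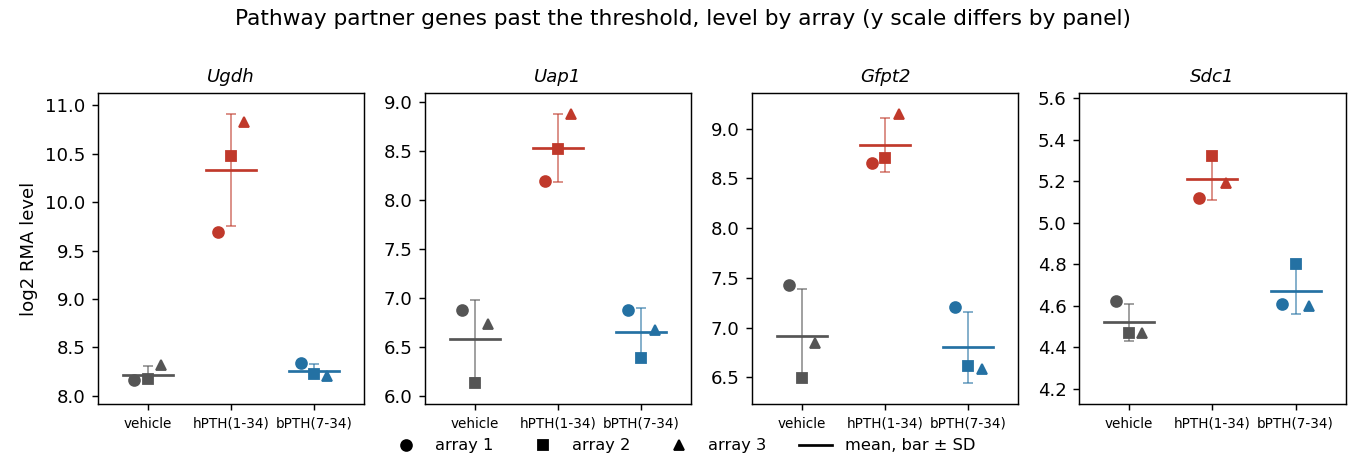
Log2 RMA level (y axis, scale differing by panel) of the 4 pathway genes outside the member set that passed between hPTH(1-34) and vehicle, by group (x axis). Symbols are arrays by number, lines are means of 3 arrays and bars ± SD. In all 4 the hPTH(1-34) arrays lie above the other 6, and for Ugdh array 1 at 9.69 is the lowest of them.

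Markers of other cells were read beside these rises. The mean log2 level of the 5 chondrocyte markers ran from 3.65 to 4.07 over the hPTH(1-34) arrays and from 3.68 to 4.03 over the vehicle arrays. That of the 4 adipocyte markers ran from 4.41 to 4.97 against 3.99 to 4.59, with 4 of 4 changes positive and Lep under the limit, and its part in the results above was not tested. The 6 macrophage and osteoclast markers ran from 4.20 to 5.44 against 4.67 to 5.27, the 4 endothelial ones from 2.02 to 2.16 against 1.97 to 2.20, and the 4 skeletal muscle ones from 2.33 to 2.57 against 2.22 to 2.79. Some single markers followed the array number. Col2a1 was lowest on number 1 with vehicle (5.99), hPTH(1-34) (5.92) and bPTH(7-34) (5.90). Adipoq was highest there (4.98, 5.09 and 5.14). Adgre1 was highest on number 1 with vehicle (6.29) and hPTH(1-34) (6.37) but not with bPTH(7-34), and Sox9 had no such order. Whether this bears on the smaller differences of array number 1 was not tested.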

How the data were processed

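Each deposited value is a log2 level of a transcript cluster on 1 array. The authors used RMA in Affymetrix Expression Console, per the submitters' processing notes; versions, genome build and filters were not given in the sources used here. No scanner files were used, and RMA had already been applied. Of 41345 clusters, 23521 had 1 gene symbol in GEO's platform annotation, 1814 several and 16010 none. The 40 members' gene IDs and symbols all matched RefSeq. A further 5 clusters joined a matching gene with another gene and were left out, and 3 matching genes occurred only in such clusters.

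A single limma model (version 3.58.1, R 4.3.3; lmFit and eBayes) of the 9 arrays by group covered the 23521 clusters. Tests were two-sided, and p-values were adjusted by Benjamini-Hochberg within each comparison and called under 0.05. Residual degrees of freedom were 6 and prior ones 3.2. The method was also run on simulated arrays with independent noise, which held no effect shared by array number and so could not check for one. Errors beside changes are standard errors from it. The number of arrays limits the precision, and p-values set a difference between groups against the spread between these samples.

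The members, lists, limit and tests were chosen with earlier results of these data known. Named genes are the members with an unadjusted p under 0.05 between hPTH(1-34) and vehicle, the 3 with the smallest p for bPTH(7-34), up to 3 per role by level, and for other pathway genes those passing and the 2 with the smallest p per group. Alternatives were a replicate block, all clusters, only clusters averaging 3 or more, quantile normalisation, equal array medians, trend with robust eBayes, array weights, 6 arrays only, the mean of a gene's clusters, and each array left out. Plots used matplotlib 3.10.9 in Python 3.11.15.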

Additional observations from a re-analysis of the deposited data

How the results depend on the processing

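Between hPTH(1-34) and vehicle, 2 members passed, and 1 (Chst8) with the replicate block, 1 (Chst8) with all 41345 clusters tested, 0 with the 6 arrays alone, 3 with array weights (Hs2st1 added, adjusted p = 0.0498 in limma) and 0 to 5 with each array left out. Chst11 had adjusted p = 0.0559 with the replicate block. Between the peptides 1 member passed, and 0 with all clusters, 2 (Chst8 and Chst11) at a mean log2 of at least 3, 2 (the same genes) with array weights, 0 with the 6 arrays alone and 0 to 5 with an array left out. For other pathway genes the counts of 4 against vehicle and 3 between the peptides became 0 with all clusters, 0 with the 6 arrays alone, and 0 to 5 and 0 to 4 with an array left out; the replicate block gave 5 and 4, adding Has1 in both. Over all clusters 106 passed against vehicle, but 16 with all clusters, 186 with the filter, 166 with array weights and 0 with the 6 arrays alone (1936 at an unadjusted p under 0.05 in limma). Between the peptides 109 passed, but 3, 215, 204 and 0 (2066 unadjusted). Testing all clusters adjusts over more tests, the filter over fewer, and 6 arrays leave fewer degrees of freedom. The spread was also estimated anew in each fit, and the cause of these shifts was not tested. The counts of 0 for bPTH(7-34) stayed 0 in every alternative. The replicate block changed no other member's call. Same-numbered arrays had deviations correlated from 0.065 to 0.364, all positive but under 0.1 for number 2. The labels named no shared source, and a pairing was not assumed in the main model. Differently numbered arrays gave -0.294 to 0.138, and each same-numbered pair of number 1 or 3 lay above these, so a shared source by number was not excluded.

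The 11 members with an unadjusted p under 0.05 between hPTH(1-34) and vehicle kept their sign in every alternative run for that comparison and for hPTH(1-34) against bPTH(7-34); the other members' signs were not followed. Between bPTH(7-34) and vehicle, values near 0 turned: Chst8 to 0.01 with array weights and Chsy1 to -0.0033 with equal array medians. With an array left out, Chst8 ran from -0.11 to 0.09, Chsy1 from -0.06 to 0.09, Chst1 from -0.06 to 0.20, Dse from -0.01 to 0.17, Ext1 from -0.04 to 0.12 and Hs3st1 from -0.18 to 0.02. Members with a mean log2 under 3, such as Chst1, Chst7, Hs3st1, Hs3st2 and Chst3, have no value under the filter.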
